A study of Mus musculus with 72 samples.

Results

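The positive arm of the circadian clock was examined in mouse liver through 4 genes, Arntl, Clock, Npas2 and Rora. They were found in the count table as the rows whose Ensembl identifiers map to these symbols, which gave 1 row for each, 4 of 55573 genes in all (Arntl ENSMUSG00000055116, Clock ENSMUSG00000029238, Npas2 ENSMUSG00000026077 and Rora ENSMUSG00000032238). Livers came from 72 male C57BL/6 mice under 12 h of light and 12 h of darkness, sampled at zeitgeber times (ZT, hours after lights on) 2, 6, 10, 14, 18 and 22. Every mouse carried Bmal1 fl/fl, that is loxP-flanked copies of Bmal1, the gene listed here as Arntl. Mice with no other allele are called WT, and those that also carried Albumin-cre, which drives the recombinase in hepatocytes, are called LKO. Cells of an LKO liver without the recombinase keep Bmal1, and Bmal1 by cell type was not measured here. Both genotypes were kept either under specific pathogen-free (SPF) conditions with their microbes or germ free (GF) in isolators, which made 4 groups of 18 libraries each, 3 at every ZT, called SPF WT, GF WT, SPF LKO and GF LKO. The study asked how the liver clock and gut microbes together shape gene expression in the liver, and the comparisons below ask how the clock's own activators behaved.

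BMAL1, the product of Arntl, is a transcription factor that works only with a partner, and CLOCK and NPAS2 are paralogous proteins that can each take the partner's place. The pair binds E-box sequences and turns on the Per and Cry genes, whose products return to block it, and the genes of the nuclear receptors REV-ERB alpha and beta (Nr1d1 and Nr1d2). RORA, another nuclear receptor, binds the same response elements as the REV-ERBs, where RORs activate and REV-ERBs repress. Arntl, Clock and Npas2 are known targets of these elements, which closes a second loop around the clock, and in liver this loop is tied to lipid and glucose metabolism.

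On GRCm38, Arntl lies on chromosome 7 from 113207465 to 113314126 on the plus strand, Clock on chromosome 5 from 76209868 to 76304792 on the minus strand, Npas2 on chromosome 1 from 39193731 to 39363236 on the plus strand, and Rora on chromosome 9 from 68653786 to 69388246 on the plus strand. RefSeq start-site windows (GRCm38.p6, 250 bases before to 50 after a start) matched all 4 symbols with 7 windows, and they were searched on both strands for the ROR and REV-ERB core AGGTCA, the E-box CACGTG and the D-box TTANGTAA. A stretch that occurs 2 times beside one Arntl start site, AAAGTAGGTNA, was added after its window had been seen. It contains the core where N is C, and it was present in 20 of 32851 windows (0.061%). The shares were 16.255% for AGGTCA, 7.15% for CACGTG and 2.323% for TTANGTAA. In that order the motifs have 11, 6, 6 and 8 letters, and a longer motif is rarer by its length alone. AGGTCA, the only motif found for Clock, is in 16.255% of all windows, so having it sets Clock little apart from other genes. The matches are shown because Arntl and Clock are the members with such letters, in capitals, near a start site, and because the elements bear on the loop that the other values describe. Each is given 5′ to 3′ in the direction of its gene.

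Arntl, chr7:113207492-113207520, plus strand, 10 bases before a start site: attggtcggAAAGTAGGTTAgtggtgcga
Arntl, chr7:113207528-113207556, plus strand, 26 bases after that start site: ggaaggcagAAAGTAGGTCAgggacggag
Clock, chr5:76303607-76303630, minus strand, 119 bases before a start site: tttggcctcTGACCTgacagatga

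Both Arntl stretches lie within annotated exons of Arntl, since another transcript starts upstream of them. The Clock match carries AGGTCA on the strand opposite to the gene and lies in Clock outside its annotated exons. The window of Npas2 and that of Rora held none of the 4 motifs, and the E-box and D-box were in no window of a member, which says only that these letters are not in these windows. The AGGTCA of the Arntl window lies inside the stretch ending in GTCA. A match is a description of letters, and binding was not measured here.

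Libraries held 17369927 to 22076113 counts (median 19106726), and values are given as CPM, counts relative to library size after scaling by TMM factors. Each count covers a whole gene, the deleted part of Arntl included, so the level of Arntl is no check on genotype. Strand was not used in the counting, so reads of Arntl and of its antisense gene Gm45355, which share 33 exon bases (0.44% of the exon bases of Arntl), cannot be told apart where they overlap, nor can those of Rora and Gm15511 (82 bases, 0.63%). Going by other genes, 4 libraries stood against their labels and stay in their labelled groups below. The libraries labelled SPF LKO ZT14 replicate 2 and SPF LKO ZT18 replicate 1 held 82852 and 102116 CPM of Alb, against 24893 to 49660.0 in the other 16 SPF LKO libraries. The library labelled SPF WT ZT14 replicate 3 held 85.2 CPM of Nr1d1 beside 3.10 and 8.56 in its group, while 9.36 was found in the one labelled GF WT ZT6 replicate 3, beside 49.2 and 50.5. The 5 hepatocyte markers (Alb, Apoa1, Ttr, Cps1 and Serpina1a) summed to 77652 to 127278 CPM in SPF WT, 41051 to 123335 in SPF LKO, 109553 to 166391 in GF WT and 48518 to 69949 in GF LKO libraries. Among them the medians of Alb differed most between genotypes, at 83712, 36414, 104308 and 32079.5 CPM in that order, beside 7959, 8072, 11857 and 11887 for Apoa1. For Ttr they were 5568, 5381, 6891 and 5880 CPM, and for Cps1 4092, 4751, 5776 and 5977. For Serpina1a they were 900, 846, 1260 and 1289 CPM, so the lower sums of LKO libraries lay mainly in Alb. The 4 cholangiocyte markers summed to 3.15 to 12.5, 4.55 to 19.3, 3.86 to 14.4 and 7.18 to 18.4 CPM, the 5 Kupffer cell markers to 173 to 443, 168 to 268, 140.4 to 284 and 105 to 248, which overlapped between genotypes as did the endothelial, stellate cell and lymphocyte sums. No marker of these 6 lists was at 0 in all libraries of a group. The part of these markers in the results was not tested, and in bulk liver fewer cells of a type and less RNA per cell cannot be told apart.

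The 4 genes sat at very different levels. Per kilobase of exon, the mean over SPF WT libraries was 8.98 CPM per kilobase for Rora, 6.39 for Clock, 2.11 for Arntl and 0.506 for Npas2, and the order was the same in GF WT libraries (8.47, 6.09, 2.47 and 0.773). In LKO libraries the place of Arntl and Npas2 was exchanged, with 4.83 CPM per kilobase for Npas2 and 1.68 for Arntl in SPF LKO and 5.52 and 1.37 in GF LKO libraries. Rora and Clock stayed the first and second there, at 8.86 and 7.75 CPM per kilobase in SPF LKO and 9.05 and 8.31 in GF LKO libraries. These are means over all ZT, and the spread over the day is given gene by gene below.

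Arntl, the gene of the obligate partner of the complex, swung widely in WT liver, and its reads stayed at a middle level in LKO liver. Counts cover the whole gene, so the LKO reads are not shown to come from transcripts that encode BMAL1. The paper reports that Bmal1 was deleted in LKO liver. At ZT22, the highest point of Arntl, the SPF WT libraries held 33.4, 35 and 39.9 CPM and the GF WT libraries 40.6, 33.7 and 33.8. At ZT10, its lowest, they held 1.81, 1.40 and 0.624 and 0.535, 0.331 and 0.956. The 2 ZT did not overlap, and the means were 36.1 ± 3.35 against 1.28 ± 0.603 CPM in SPF WT and 36 ± 3.98 against 0.607 ± 0.319 in GF WT mice (SD, n = 3). Between these points SPF WT libraries held 15.8, 19.5 and 2.12 CPM at ZT14, where the low value is the library labelled replicate 3, and 30.1, 26 and 19.7 at ZT18, and they were lower again at ZT2 (11, 27.9 and 15.5) and ZT6 (1.34, 2.30 and 2.87). In SPF WT mice only ZT22 and ZT18 had ranges apart among neighbours in the order ZT22, ZT18, ZT2, ZT14, ZT6, ZT10. In GF WT mice the order was the same, with 33.8, 31 and 26.5 at ZT18, 29.8, 26.4 and 33.2 at ZT2, 9.65, 10.9 and 10.7 at ZT14 and 1.62, 2.43 and 8.21 at ZT6, where the high value is the library labelled replicate 3. There the ranges of ZT22, ZT18 and ZT2 overlapped, and each later step was apart.

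In LKO liver, over the 18 GF LKO libraries it ran from 7.04 to 13.4 CPM with a median of 10.1, and over the 18 SPF LKO libraries from 8.52 to 29.2 CPM with a median of 11.6. The highest of these, that of the library labelled ZT18 replicate 1 of SPF LKO mice, stood beside 11.5 and 11.9 in the other libraries of that ZT, and without the 2 SPF LKO libraries that stood against their labels the highest was 16.5. At ZT10 SPF LKO libraries held 8.52, 9.52 and 9.10 CPM and GF LKO libraries 9.43, 8.76 and 7.37, and at ZT22 16.5, 13.7 and 12.2 and 9.71, 10.9 and 13.4. Every LKO library was therefore above every WT library at ZT10, and every one below at ZT22.

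**Figure D1:**
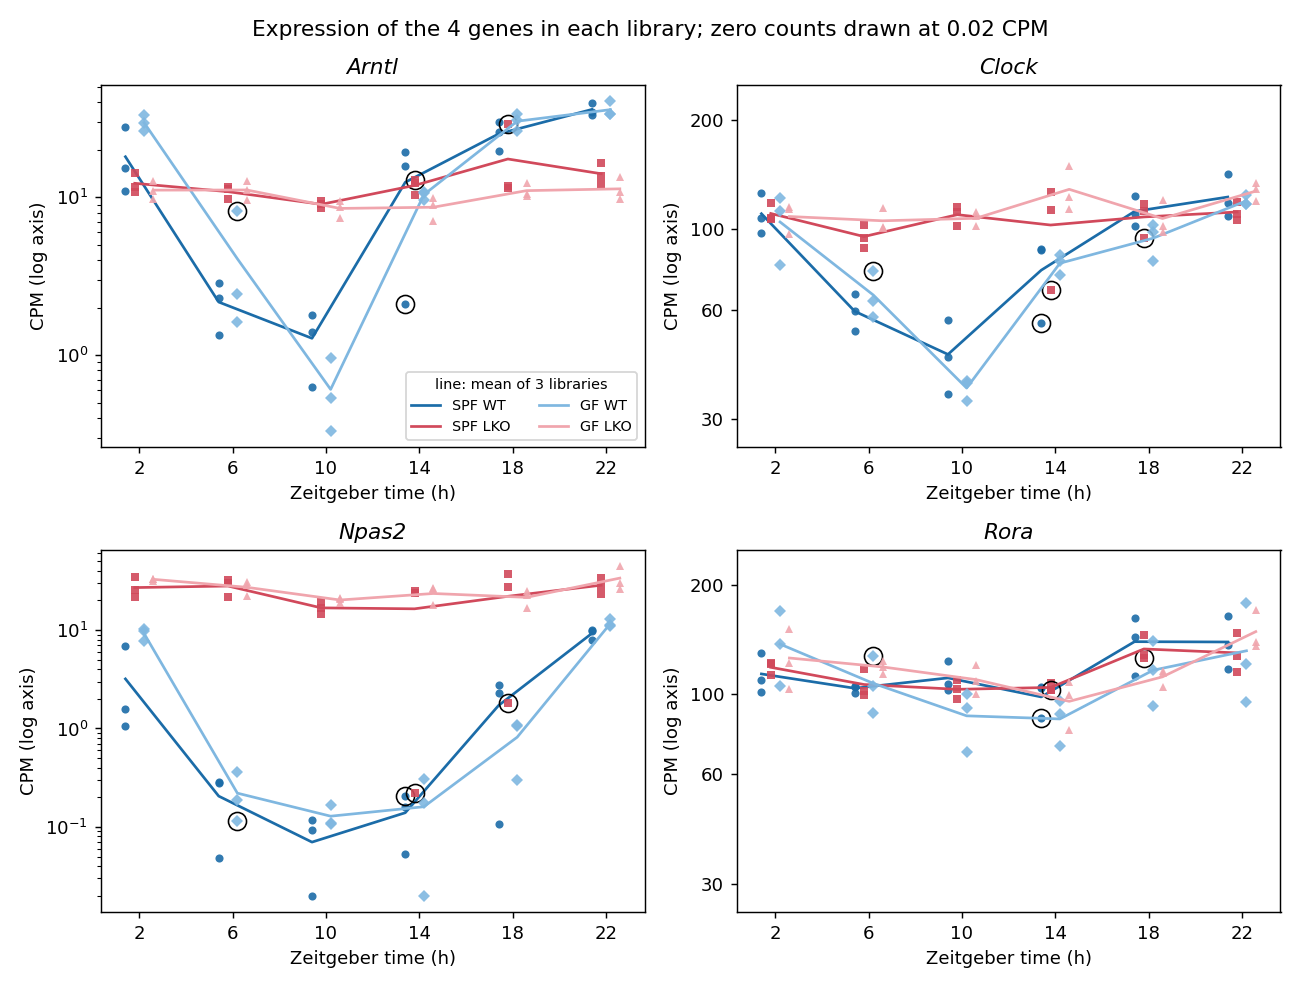
Expression of Arntl, Clock, Npas2 and Rora in each of 72 libraries (points, CPM on a log axis) by zeitgeber time in hours, with lines through the mean of 3 libraries of each group and black rings around the 4 libraries that stood against their labels, and with 0 counts drawn at 0.02 CPM. Arntl, Clock and Npas2 fell to their lowest at ZT10 in WT groups, to 0.0701 CPM for Npas2 in SPF WT mice, while the LKO means varied less and Rora ran within 69.4 to 179 CPM in every group.

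The sign of the genotype difference in Arntl turned over the day. Differences are given as log2 of LKO over WT from edgeR's quasi-likelihood test on the 12 libraries of a ZT, with p-values adjusted by Benjamini-Hochberg over all genes tested and a threshold of 0.05. They measure the spread between libraries that the labels number as replicates. LKO mice had more Arntl reads than WT mice at ZT6, by 2.32 (SE 0.45, edgeR adjusted p = 0.00656) in SPF and 1.44 (SE 0.43, edgeR adjusted p = 0.0471) in GF mice. At ZT10 they had more by 2.83 (SE 0.30, edgeR adjusted p = 1.98e-05) in SPF and 3.80 (SE 0.33, edgeR adjusted p = 2.48e-06) in GF mice, which is 7.12-fold and 14-fold. With the library labelled GF WT ZT6 replicate 3 left out the GF difference at ZT6 was 2.46 (SE 0.28, edgeR adjusted p = 9.27e-05). Of the 12 fits that each left out 1 library of that ZT, 10 lost this call in GF mice (log2 differences from 1.05 to 1.53), among them those without either of the other GF WT libraries. Arntl was lower in LKO mice at ZT22, with log2 differences of -1.35 (SE 0.15, edgeR adjusted p = 0.000115) in SPF and -1.67 (SE 0.15, edgeR adjusted p = 1.95e-05) in GF mice, or 2.55-fold and 3.19-fold.

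In GF mice Arntl was lower in LKO liver at ZT2 as well, at -1.43 (SE 0.26, edgeR adjusted p = 0.00529), and at ZT18, at -1.44 (SE 0.30, edgeR adjusted p = 0.013). The latter call was lost without GF LKO ZT18 replicate 1 (-1.38, edgeR adjusted p = 0.0534). In SPF mice the values there were -0.55 (SE 0.25, edgeR adjusted p = 0.23) at ZT2 and -0.54 (SE 0.29, edgeR adjusted p = 0.533) at ZT18, and the latter was -1.10 (SE 0.18, edgeR adjusted p = 0.00281) with the library labelled SPF LKO ZT18 replicate 1 left out. At ZT14, where the WT curve crosses the LKO level, neither difference passed (-0.06, edgeR adjusted p = 0.975, in SPF and -0.26, edgeR adjusted p = 0.819, in GF mice). Arntl was thus past the threshold at 3 of 6 ZT in SPF and 5 of 6 in GF mice.

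Clock, the usual partner of BMAL1, was high in every group and rose and fell less. In WT mice it was lowest at ZT10, with 56.1, 44.3 and 35.1 CPM in SPF WT and 33.7, 37.7 and 38 in GF WT libraries, and highest at ZT22, with 109, 142 and 118 and 124, 117 and 117. The highest mean was 2.72-fold and 3.28-fold the lowest, 45.2 ± 10.5 against 123 ± 17.2 CPM in SPF WT and 36.5 ± 2.42 against 119.8 ± 4.01 in GF WT mice (SD, n = 3). Of neighbouring ZT in the order of the means, only ZT2 and ZT14 had ranges apart in SPF WT mice and only ZT6 and ZT10 in GF WT mice. LKO liver lacked the low values. At ZT10 SPF LKO libraries held 102, 115 and 112 CPM and GF LKO libraries 108, 102 and 111, all above the WT libraries, and over all ZT Clock ran from 67.8 to 127 CPM with a median of 108 in SPF LKO and from 96.7 to 149.7 CPM with a median of 114 in GF LKO libraries. The lowest of these, 67.8 CPM, was the library labelled SPF LKO ZT14 replicate 2.

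LKO mice had more Clock than WT mice at ZT6, by 0.68 (SE 0.12, edgeR adjusted p = 0.00423) in SPF and 0.68 (SE 0.12, edgeR adjusted p = 0.00318) in GF mice, and at ZT10, by 1.29 (SE 0.14, edgeR adjusted p = 2.55e-05) and 1.56 (SE 0.14, edgeR adjusted p = 3.25e-06), which is 2.44-fold and 2.94-fold. At ZT14 GF LKO libraries (114, 123 and 149.7) also lay above all GF WT libraries (74.9, 81.8 and 85.1), a difference of 0.68 (SE 0.23, edgeR adjusted p = 0.0964) that became 0.68 (SE 0.17, edgeR adjusted p = 0.0205) with the library labelled SPF LKO ZT14 replicate 2 left out, which shares the estimate of the spread. In SPF mice the ZT14 value was 0.42 (SE 0.22, edgeR adjusted p = 0.518). At ZT2, ZT18 and ZT22 the differences lay from -0.13 to 0.20 over both microbial states and none passed by edgeR. Clock was not past the threshold in the downward direction at any ZT, unlike Arntl, which shares its WT trough.

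Npas2, the paralog that can stand in for CLOCK, was the member with the greatest contrast between genotypes. In WT liver it was nearly silent from ZT6 to ZT14. SPF WT libraries held 1, 6 and 6 counts at ZT6, 2, 2 and 0 at ZT10 and 1, 3 and 4 at ZT14, and GF WT libraries 6, 3 and 2, 2, 2 and 3 and 5, 3 and 0. It then appeared at ZT18, with 2.28, 2.75 and 0.107 CPM in SPF WT and 1.07, 1.08 and 0.298 in GF WT libraries, and was highest at ZT22, with 9.80, 10.1 and 7.86 and 12.8, 11 and 11.1. At ZT2 GF WT libraries held 7.69, 9.78 and 10.2 CPM and SPF WT libraries 1.06, 6.93 and 1.58, so that the lowest GF WT library was above the highest SPF WT library, as it also was at ZT22. At these ZT 28% and 19.1% of 14636 genes had GF WT and SPF WT ranges apart.

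In LKO liver Npas2 was high at every ZT. At ZT10 SPF LKO libraries held 14.4, 19.4 and 16.6 CPM and GF LKO libraries 20.6, 21.1 and 18.9, and at ZT22 28.2, 33.9 and 23.4 and 26.1, 30.4 and 44.5. Even the lowest GF LKO library of any ZT (16.9 CPM) exceeded the highest WT library of either microbial state (12.8). The exceptions in SPF LKO mice were the library labelled ZT14 replicate 2, at 0.219 CPM beside 25 and 24, and the library labelled ZT18 replicate 1, at 1.82 beside 36.7 and 27.5. The other 16 SPF LKO libraries ran from 14.4 to 36.7 CPM.

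The genotype difference in Npas2 followed the WT curve. It was smallest at ZT22, 1.63 (SE 0.20, edgeR adjusted p = 0.000265) in SPF and 1.52 (SE 0.20, edgeR adjusted p = 0.000341) in GF mice, and largest at ZT10, 7.80 (SE 0.31, edgeR adjusted p = 1.34e-09) and 7.23 (SE 0.28, edgeR adjusted p = 1.41e-09). The size at ZT10 rests on the 4 and 7 counts that the SPF WT and GF WT libraries of ZT10 hold in all. At ZT6, ZT10 and ZT14 Npas2 passed the filter for low counts only through the LKO libraries. High LKO values were thus needed for it to be tested there, and its p-values at these 3 ZT describe only. Npas2 was higher by 3.07 (SE 0.44, edgeR adjusted p = 0.000907) in SPF and 1.82 (SE 0.41, edgeR adjusted p = 0.0215) in GF mice at ZT2, and by 7.04 (SE 0.33, edgeR adjusted p = 1.6e-07) and 6.91 (SE 0.34, edgeR adjusted p = 1.68e-07) at ZT6. In GF mice it was also higher by 7.13 (SE 1.28, edgeR adjusted p = 0.013) at ZT14 and 4.74 (SE 0.98, edgeR adjusted p = 0.0127) at ZT18. The ZT2 call in GF mice was lost without any 1 of the 6 GF libraries of that ZT (1.73 to 1.90, edgeR adjusted p from 0.0502 to 0.072), and the ZT14 call without GF WT replicate 1 (7.92, edgeR adjusted p = 0.0512) or replicate 3 (6.57, edgeR adjusted p = 0.0536). In SPF mice the values at these ZT were 6.82 (SE 1.29, edgeR adjusted p = 0.117) and 3.70 (SE 0.87, edgeR adjusted p = 0.204), and with the library of each ZT that stood against its label left out they were 7.39 (SE 0.40, edgeR adjusted p = 7.54e-07) and 4.24 (SE 0.52, edgeR adjusted p = 0.000318). Npas2 was thus past the threshold at 6 of 6 ZT in GF and 4 of 6 in SPF mice with all libraries.

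**Figure D2:**
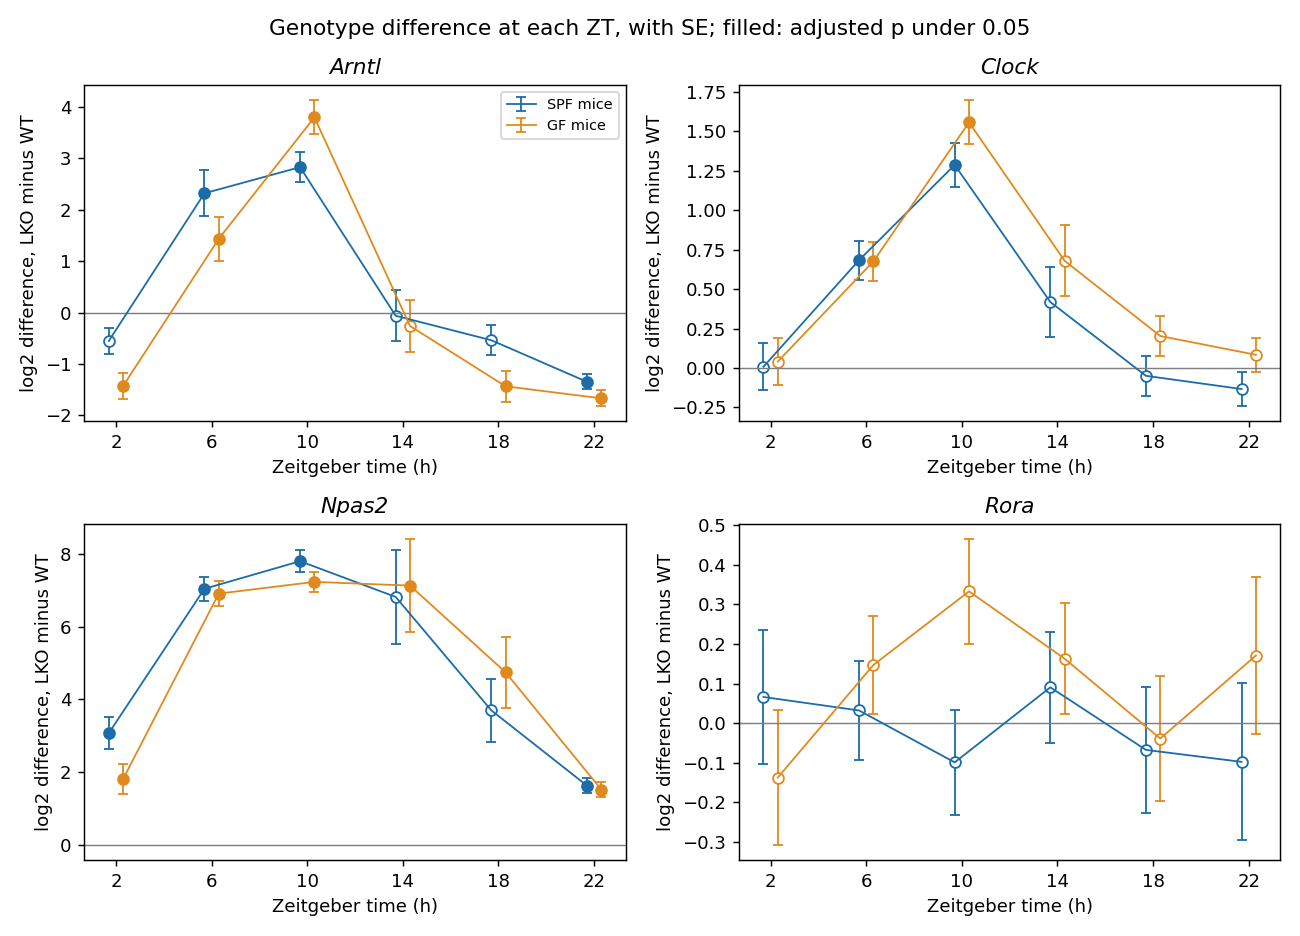
Log2 difference between LKO and WT mice at each zeitgeber time (hours) for the 4 genes, with bars of 1 SE from edgeR's fit to the 12 libraries of a ZT, SPF mice in blue and GF mice in orange, filled points past an adjusted p of 0.05. Arntl crosses 0 between ZT10 and ZT22 (2.83 to -1.35 in SPF mice), Npas2 stays above 0 throughout, Clock stands out at ZT6 and ZT10, and Rora has no filled point.

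The counts of members past the threshold are given beside the share of all genes at each ZT. They describe only, since the members were chosen with earlier results of these data known and Arntl is the deleted gene. Npas2 was moreover tested at ZT6, ZT10 and ZT14 only because LKO libraries took it past the filter for low counts. In SPF mice 3 of 4 members passed at ZT6, where 7.26% of all genes tested did, and 3 of 4 at ZT10 (11.9%), against 1 of 4 at ZT2 (6.89%) and 2 of 4 at ZT22 (3.31%). In GF mice ZT6 (11.7% of all genes) and ZT10 (13.1%) had 3 of 4 members each. ZT2 (4.21%), ZT18 (8.43%) and ZT22 (4.44%) had 2 each, and ZT14 (6.1%) had 1. At ZT14 and ZT18 in SPF mice 0 of 4 members passed, and of all genes 0% and 0.015% did. At an unadjusted p under 0.05, edgeR had 1 member at ZT14 and 1 at ZT18, and DESeq2 called 1 and 0. Over all genes at ZT14 the counts were 1484 at an unadjusted p under 0.05 by edgeR and 136 called by DESeq2. In SPF mice the calls over all genes numbered, in order of ZT, 937, 988, 1603, 0, 2 and 449 with all libraries, 479, 534, 947, 0, 0 and 281 at the lowest and 1219, 1452, 1615, 699, 627 and 488 at the highest with 1 library of the ZT left out, and 1017, 791, 1410.0, 0, 0 and 375 with the replicate number as a block. In GF mice they numbered 572, 1587, 1764, 813, 1124 and 603 with all libraries, 323, 1059, 1336, 126, 452 and 357 at the lowest and 600.0, 1651, 1956, 1461, 1492 and 646 at the highest with 1 library of the ZT left out, and 572, 1275, 1607, 691, 1062 and 508 with the replicate number as a block.

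By the plain ranges of 3 libraries against 3, LKO and WT lay apart for Npas2 at 5 ZT in SPF mice (all but ZT18) and 6 in GF mice, for Arntl at 3 and 5, for Clock at 2 and 3, and for Rora at none. That made 1, 3, 3, 1, 0 and 2 of 4 members in order of ZT in SPF mice, where 26.4%, 28.5%, 27.2%, 10.5%, 12.4% and 18.3% of 14636 genes lay apart. In GF mice it made 2, 3, 3, 2, 2 and 2 of 4, beside 18.7%, 26.8%, 29.1%, 31.5%, 31.6% and 18.9%.

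Since CLOCK and NPAS2 can each stand beside BMAL1, the ratio of their transcripts was taken in each library, as counts per kilobase of exon with 0.5 added to each count. In SPF WT libraries Npas2 amounted to 0.00212 to 0.259 of Clock (median 0.0141) and in GF WT libraries to 0.00105 to 0.352 (median 0.0171). In SPF LKO libraries the median was 0.642 (range 0.0104 to 1.04), in GF LKO libraries 0.647 (0.403 to 0.952). Only 1 library, SPF LKO ZT6 replicate 3, had more Npas2 than Clock per kilobase. The lowest SPF LKO value belonged to the library labelled ZT14 replicate 2.

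In WT mice the ratio moved through the day. At ZT22 the 3 SPF WT libraries had ratios of 0.192, 0.204 and 0.259 and the GF WT libraries 0.270, 0.273 and 0.297, from lowest to highest. At ZT10 these were 0.00212, 0.00745 and 0.00757 and 0.0105, 0.0114 and 0.0148. At ZT2 they were 0.0319, 0.0364 and 0.186 in SPF WT and 0.181, 0.261 and 0.352 in GF WT mice, and the highest SPF WT library reached just above the lowest GF WT library. In GF LKO mice the lowest and highest ZT by median were 0.451, 0.509 and 0.608 at ZT14 and 0.832, 0.836 and 0.940 at ZT2. Averaged over ZT, the log2 ratio in LKO mice exceeded that in WT mice by 4.45 (SE 0.67) in SPF and 4.39 (SE 0.59) in GF mice, each with p = 1e-05 by a 2-sided permutation test over 18 against 18 libraries, the smallest that 100000 resamples can give, and adjusted p = 2e-05 over 4 comparisons. GF and SPF mice did not differ past the threshold, at 0.57 (SE 0.80, permutation adjusted p = 0.474) in WT and 0.51 (SE 0.40, permutation adjusted p = 0.367) in LKO mice. The LKO value was -0.02 (SE 0.13) without the 2 SPF LKO libraries that stood against their labels. The resampling did not keep ZT, so in WT mice the swing of the ratio over the day is part of the spread. A smaller microbial difference could therefore be missed. All GF WT ratios lay above all SPF WT ratios at ZT22 and at ZT10, where Npas2 was nearly silent. At the other ZT the ranges overlapped, and single ZT were not tested. Without the libraries that stood against their labels the genotype difference was 4.94 in SPF and 4.24 in GF mice.

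**Figure D3:**
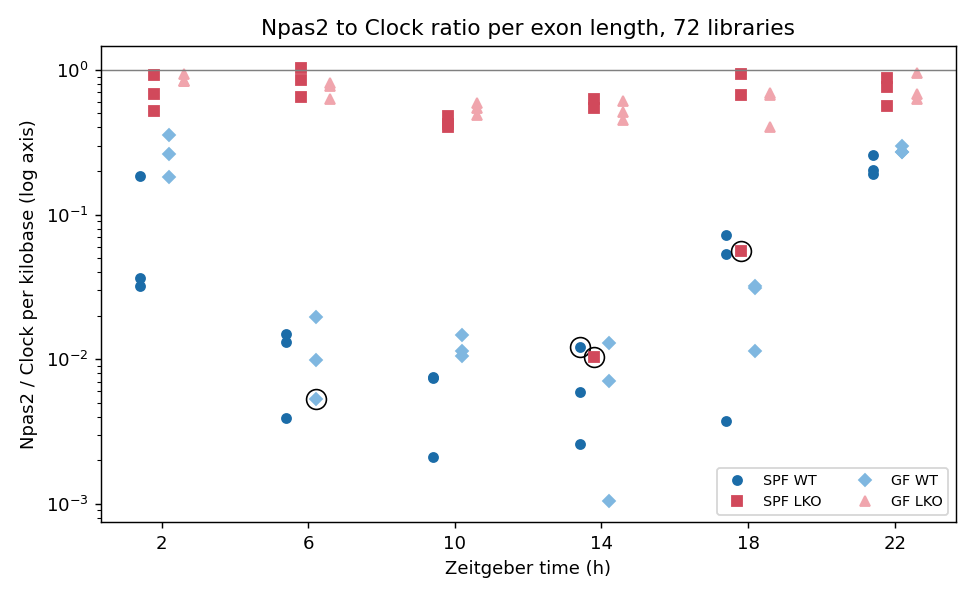
Ratio of Npas2 to Clock per kilobase of exon in each of 72 libraries (log axis) by zeitgeber time in hours, with a line at 1 and black rings around the 4 libraries that stood against their labels. WT libraries lie between 0.00105 and 0.352, GF LKO libraries between 0.403 and 0.952, and the ringed SPF LKO libraries lie among the WT libraries.

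Rora, which encodes the receptor that activates through the ROR element, had no genotype difference past the threshold at any ZT. It ran from 85.6 to 164 CPM with a median of 108 in SPF WT, from 96.7 to 147 CPM with a median of 114 in SPF LKO, from 69.4 to 179 CPM with a median of 103 in GF WT and from 79.3 to 171 CPM with a median of 115 in GF LKO libraries. At ZT10 the libraries held 107, 123 and 102 CPM in SPF WT, 103, 96.7 and 109 in SPF LKO, 69.4, 91.5 and 100.2 in GF WT and 99.7, 120.0 and 109 in GF LKO mice. At ZT22 they held 136, 164 and 117, 115, 147 and 127, 179, 94.8 and 121 and 139, 136 and 171 in the same order. LKO and WT libraries overlapped in each microbial state at both ZT, while at ZT10 the highest GF WT library lay below the lowest SPF WT library. The genotype difference at single ZT lay between -0.10 and 0.09 in SPF and between -0.14 and 0.33 in GF mice, and 0 of 12 passed by edgeR. At an unadjusted p under 0.05 there was 1 of 12 (ZT10 in GF mice, SE 0.13, edgeR adjusted p = 0.128), and DESeq2 called 0.

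Rorb, a paralog of Rora, had 1 and 3 counts in 2 libraries and none in the other 70 libraries. The repressors that act at the same elements were lower in LKO mice with ZT pooled, Nr1d1 at -2.93 (SE 0.53, edgeR adjusted p = 5.93e-05) in SPF and -2.80 (SE 0.48, edgeR adjusted p = 1.27e-05) in GF mice and Nr1d2 at -1.93 (SE 0.31, edgeR adjusted p = 1.06e-05) and -2.48 (SE 0.28, edgeR adjusted p = 4.45e-09).

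A 24 h cosine and sine were fitted to each group's 18 libraries to give each rhythm an amplitude, on the log2 scale from the mean to the peak, and a peak time. In SPF WT mice Npas2 had an amplitude of 3.76 (SE 0.35, edgeR adjusted p = 4.44e-06), Arntl of 2.27 (SE 0.29, edgeR adjusted p = 0.000105) and Clock of 0.73 (SE 0.08, edgeR adjusted p = 3.68e-05). In GF WT mice these were 4.26 (SE 0.25, edgeR adjusted p = 4.66e-09), 2.32 (SE 0.29, edgeR adjusted p = 3.03e-05) and 0.70 (SE 0.10, edgeR adjusted p = 0.000104). From trough to peak of the fitted curves this is 182-fold and 365-fold for Npas2, 23.3-fold and 24.9-fold for Arntl, and 2.74-fold and 2.62-fold for Clock. The highest mean of a ZT over the lowest was 132-fold and 90.8-fold for Npas2, 28.2-fold and 59.3-fold for Arntl and 2.72-fold and 3.28-fold for Clock, and the trough of Npas2 rests on 0 to 6 counts per library. The 3 genes of the activator complex peaked in the later night in the order Arntl, Clock, Npas2. In SPF WT mice the fitted peaks were at ZT20.6 (SE 0.399 h), ZT21.4 (SE 0.416 h) and ZT22.5 (SE 0.341 h), and in GF WT mice at ZT21.4 (SE 0.371 h), ZT21.7 (SE 0.488 h) and ZT23.5 (SE 0.213 h). Differences in peak time between genes were not tested.

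In LKO mice the amplitudes were small. Clock had 0.06 (SE 0.06, edgeR adjusted p = 0.722) in SPF LKO and 0.10 (SE 0.05, edgeR adjusted p = 0.319) in GF LKO mice, and neither passed. Arntl kept a low amplitude of 0.39 (SE 0.10, edgeR adjusted p = 0.0321) in SPF LKO mice, 0.26 (SE 0.06, edgeR adjusted p = 0.0132) without the 2 libraries that stood against their labels, and of 0.22 (SE 0.07, edgeR adjusted p = 0.0501) in GF LKO mice. Npas2 had 0.44 (SE 0.31, edgeR adjusted p = 0.508) in SPF LKO and 0.35 (SE 0.08, edgeR adjusted p = 0.00716) in GF LKO mice, where it peaked at ZT0.666 (SE 0.910 h). For Rora the amplitude was 0.22 (SE 0.07, edgeR adjusted p = 0.0574) in SPF WT, 0.21 (SE 0.04, edgeR adjusted p = 0.00629) in SPF LKO, 0.37 (SE 0.09, edgeR adjusted p = 0.0121) in GF WT and 0.24 (SE 0.06, edgeR adjusted p = 0.0114) in GF LKO mice. It peaked at ZT21.1 (SE 0.766 h) in SPF LKO, ZT23.8 (SE 0.903 h) in GF WT and ZT0.347 (SE 0.945 h) in GF LKO mice. With the library labelled SPF WT ZT14 replicate 3 left out the SPF WT amplitude of Rora was 0.22 (SE 0.06, edgeR adjusted p = 0.0379). The rhythm of Arntl in SPF LKO mice was lost without any 1 replicate number, that of Npas2 in GF LKO mice without number 1, and those of Rora without number 2 or 3 in SPF LKO, 1 in GF WT and 1 or 3 in GF LKO mice. Rhythms past the threshold were thus found for 3 of 4 members in SPF WT (15.5% of all genes), 2 of 4 in SPF LKO (22.2%), 4 of 4 in GF WT (27.7%) and 2 of 4 in GF LKO mice (36%).

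**Figure D4:**
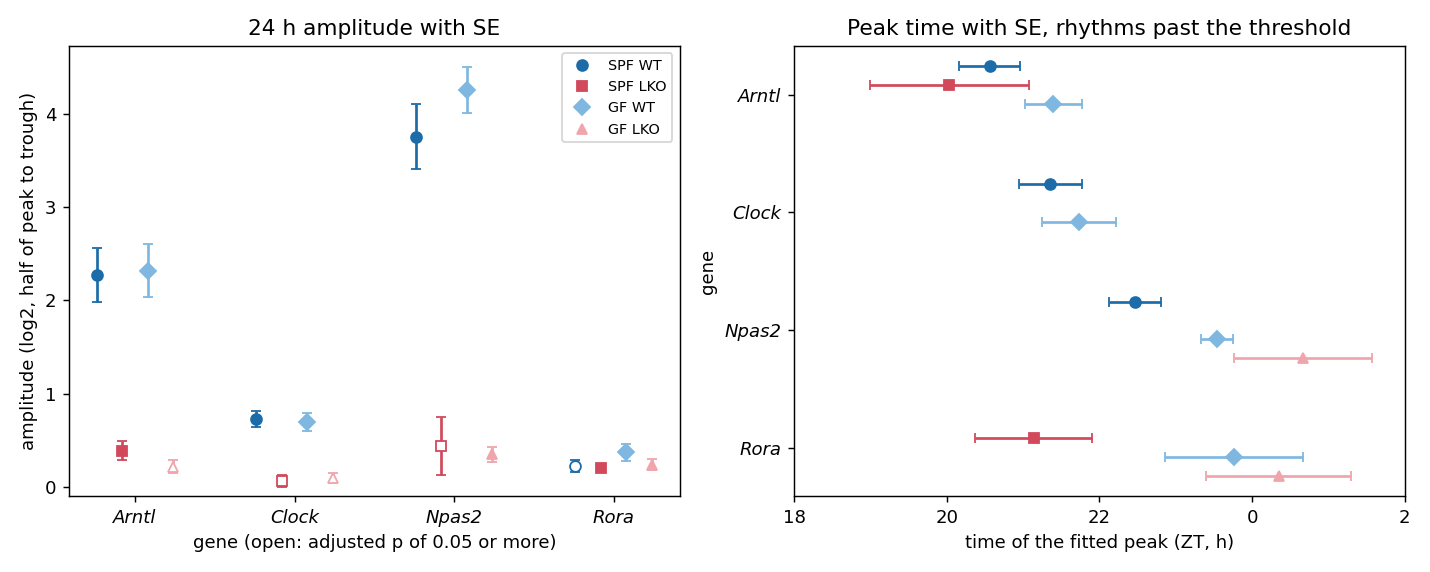
Left, amplitude of the fitted 24 h rhythm (log2 from mean to peak, bars of 1 SE) of the 4 genes in the 4 groups, with open symbols where the adjusted p was 0.05 or more, and right, the time of the fitted peak (ZT in hours, bars of 1 SE) of the rhythms past the threshold. Amplitudes in WT groups reach 4.26 for Npas2, while all LKO amplitudes lie at 0.44 or less and those of Rora lie from 0.21 to 0.37 over the 4 groups.

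The difference in rhythm between groups was tested as the interaction of group with cosine and sine over 36 libraries. In SPF mice it passed between LKO and WT for Clock (edgeR adjusted p = 0.00135), Arntl (0.00171) and Npas2 (0.00364), and in GF mice for Npas2 (3.94e-13), Arntl (1.44e-05) and Clock (0.000538). Without the 3 SPF libraries that stood against their labels the SPF values were 0.000115 for Clock, 0.000101 for Arntl and 9.19e-07 for Npas2 (edgeR adjusted p). For Rora it did not pass (edgeR adjusted p = 0.96 in SPF and 0.712 in GF mice). With all libraries of 1 replicate number left out, the SPF calls of Arntl and Npas2 were lost without number 1 or 3 and those of Clock in SPF and GF mice without number 1. The SPF call of Npas2 was also lost with ZT as a factor (edgeR adjusted p = 0.189). In all, 3 of 4 members passed where 1.12% of all genes did in SPF mice and 6.38% in GF mice. Between GF and SPF mice 0 of 4 members passed by edgeR, in WT (0.047% of all genes) or in LKO mice (5.34%). At an unadjusted p under 0.05 there were 1 of 4 in WT and 1 of 4 in LKO mice, and DESeq2 called 0 and 0.

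With all ZT pooled, as the study compared its groups, Npas2 was the member called in both microbial states with ZT not in the fit. LKO mice exceeded WT mice by 3.25 (SE 0.52, edgeR adjusted p = 1.09e-05) in SPF and 2.83 (SE 0.47, edgeR adjusted p = 7.99e-06) in GF mice, or 9.53-fold and 7.13-fold. The SPF value was 3.34 (SE 0.46, edgeR adjusted p = 5.76e-07) without the 3 SPF libraries that stood against their labels. In these pooled fits of LKO and WT libraries too, Npas2 passed the filter for low counts only through the LKO libraries. Clock was higher by 0.45 (SE 0.13, edgeR adjusted p = 0.00794) in GF mice, a call lost without the libraries numbered 2 or those numbered 3, and the SPF value was 0.28 (SE 0.14, edgeR adjusted p = 0.134). The SPF value was called at 0.36 (edgeR adjusted p = 0.0135) with ZT as a factor and at 0.36 (edgeR adjusted p = 0.017) with the replicate number as a block beside it. For Arntl, whose difference changed sign over the day, the pooled values were -0.33 (SE 0.37, edgeR adjusted p = 0.568) and -0.84 (SE 0.37, edgeR adjusted p = 0.0813), and for Rora -0.02 (SE 0.07, edgeR adjusted p = 0.901) and 0.10 (SE 0.10, edgeR adjusted p = 0.524). That made 1 of 4 members in SPF mice, where 23.1% of all genes passed, and 2 of 4 in GF mice (30.8%). The difference between GF and SPF mice in the genotype effect was -0.52 (SE 0.54, adjusted p = 0.976) for Arntl, 0.16 (SE 0.19, adjusted p = 0.976) for Clock, -0.43 (SE 0.69, adjusted p = 0.987) for Npas2 and 0.11 (SE 0.13, adjusted p = 0.976) for Rora by edgeR. None of the 4 passed, with 0 at an unadjusted p under 0.05 and 0 called by DESeq2, where 0.438% of all genes did.

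The counts of members that differed between GF and SPF mice stand beside the shares over all genes. With 4 members, such counts say little about these genes. Pooled over ZT, GF WT mice differed from SPF WT mice by 0.20 (SE 0.51, edgeR adjusted p = 0.786) for Arntl, -0.09 (SE 0.18, edgeR adjusted p = 0.745) for Clock, 0.59 (SE 0.70, edgeR adjusted p = 0.541) for Npas2 and -0.10 (SE 0.11, edgeR adjusted p = 0.496) for Rora. None of the 4 passed by edgeR (0 at an unadjusted p under 0.05, 0 called by DESeq2), against 31.8% of all genes. ZT was not in this fit, so the swing over the day is part of its spread. With ZT as a factor none of the 4 was called (Npas2 0.40, SE 0.32, edgeR adjusted p = 0.318), where 4823 of 12776 genes were. In LKO mice 1 of 4 passed (36.4% of all genes). Arntl was lower in GF LKO than in SPF LKO mice, at -0.30 (SE 0.11, edgeR adjusted p = 0.0364), and this was -0.18 (SE 0.08, edgeR adjusted p = 0.0782) with the library labelled SPF LKO ZT18 replicate 1 left out and -0.17 (SE 0.08, edgeR adjusted p = 0.102) without both SPF LKO libraries that stood against their labels. The values of Clock, 0.10 (SE 0.06, edgeR adjusted p = 0.228), Npas2, 0.19 (SE 0.25, edgeR adjusted p = 0.579), and Rora, 0.03 (SE 0.07, edgeR adjusted p = 0.806), did not pass.

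At single ZT the one microbial difference past the threshold was that of Npas2 at ZT2 in WT mice. GF WT mice were higher by 1.53 (SE 0.45, edgeR adjusted p = 0.0471), 1 of 4 members where 10.1% of all genes passed, and the call was lost by DESeq2, which called Arntl at this ZT instead, and in 11 of 12 fits that each left out 1 library of that ZT (log2 differences from 1.12 to 1.63). At the same ZT Arntl had 0.73 (SE 0.25, edgeR adjusted p = 0.0803), with 11, 27.9 and 15.5 CPM in SPF WT and 29.8, 26.4 and 33.2 in GF WT libraries. At ZT6, ZT10, ZT14, ZT18 and ZT22 in WT mice 0 of 4 members passed by edgeR, beside 2.62%, 2.89%, 0.0751%, 0.983% and 0.516% of all genes. The members at an unadjusted p under 0.05 numbered 0, 3, 0, 0 and 0 at these ZT, and those called by DESeq2 0, 0, 0, 0 and 0. The 3 at ZT10 were Arntl (-1.06, edgeR adjusted p = 0.163), Rora (-0.34, edgeR adjusted p = 0.18) and Clock (-0.30, edgeR adjusted p = 0.256), all lower in GF WT mice. Of these Rora had ranges apart, where 20.9% of 14636 genes did. Npas2 was nearly silent in both WT groups at ZT6, ZT10 and ZT14 (SE 0.63, 0.69 and 2.41). Its lack of a call there therefore says little.

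Between GF LKO and SPF LKO mice 0 of 4 members passed by edgeR at any of the 6 ZT, beside 8.92%, 0.309%, 0.982%, 0.0601%, 3.71% and 2.25% of all genes in order of ZT. At an unadjusted p under 0.05 there were 0, 0, 0, 0, 1 and 0, and DESeq2 called 0, 0, 0, 0, 0 and 0. The one at ZT18 was Arntl (-0.65, edgeR adjusted p = 0.215), where the library labelled SPF LKO ZT18 replicate 1 stands. Between GF WT and SPF WT mice the calls over all genes numbered, in order of ZT, 1379, 356, 388, 10, 131 and 70 with all libraries, 480.0, 0, 91, 2, 6 and 2 at the lowest and 1416, 794, 392, 83, 249 and 398 at the highest with 1 library of the ZT left out, and 1505, 3, 271, 4, 77 and 16 with the replicate number as a block. Between GF LKO and SPF LKO mice they numbered 1213, 42, 132, 8, 494 and 305 with all libraries, 342, 1, 31, 0, 49 and 40 at the lowest and 1755, 385, 185, 108, 623 and 701 at the highest with 1 library of the ZT left out, and 1301, 2, 97, 1, 372 and 173 with the replicate number as a block. The comparisons of LKO with WT and of GF with SPF mice share groups, so their values are not independent of each other.

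Of 20 other clock genes (genes of the negative limb, outputs of the clock, and modifiers of its proteins), 10 of 19 tested differed between SPF LKO and SPF WT mice with ZT pooled (23.1% of all genes), 4 higher and 6 lower, with a list median of -0.13 against -0.01 over all genes. Among the lower were Nr1d1, Nr1d2 and Dbp, an output gene of the clock. In GF mice 12 of 18 differed (30.8% of all genes), 5 higher and 7 lower, with these 3 again among the lower (list median -0.15, all genes 0.01). Between GF and SPF mice 1 of 19 differed in WT mice (Csnk1e, lower in GF mice), beside 31.8% of all genes, and 5 of 17 in LKO mice, beside 36.4%. Dbp and Csnk1e are named here after their values had been seen. A 24 h rhythm passed in 13 of 19 in SPF WT (all genes 15.5%), 8 of 18 in SPF LKO (22.2%), 14 of 19 in GF WT (27.7%) and 12 of 17 in GF LKO mice (36%). A difference in rhythm between LKO and WT mice passed in 8 of 19 in SPF (all genes 1.12%) and 11 of 18 in GF mice (6.38%), beside 3 of 4 members in each.

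Lastly, the genes whose pattern was most like each member's were found by Pearson r over the 72 libraries on log2 CPM among 10710 genes. These are descriptions over libraries that share groups and ZT. For Arntl they were Net1 (r = 0.865), Hacl1 (0.837) and Nedd4l (0.832), and the most opposite was Dbp (-0.902), a clock output gene, before Narf (-0.836). For Clock they were 4932438A13Rik (0.898), Caprin1 (0.896) and Slc30a10 (0.884), opposite to Slc38a3 (-0.877). For Npas2 they were Loxl4 (0.950), Grk5 (0.942) and Trmt9b (0.941), opposite to Gys2 (-0.941), the liver glycogen synthase, and Efhd2 (-0.937). Rora had no likeness as close, with Smc5 (0.737), 1700066M21Rik (0.733) and Tfpi2 (0.693) nearest and Nectin2 (-0.732) and Afg3l2 (-0.729) most opposite. Among the members themselves r was 0.821 for Arntl and Clock, 0.760 for Clock and Npas2 and 0.471 for Arntl and Npas2, and 0.402 to 0.508 for each of them with Rora.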

How the data were processed

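Liver RNA of 72 mice was sequenced as single-end reads from a stranded mRNA kit, after TRIzol and chloroform extraction. The authors aligned reads with STAR 2.6.1b to mm10 and deposited raw counts per gene from featureCounts 2.0.0 (exons of the Ensembl annotation, strand not used, reads with several places or several genes left out). Of 55573 genes, 22224 had no count, and no column was left unused. Groups were taken from the labels, which number libraries as replicates and name no animals, so p-values measure the spread between these libraries.

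Counts were tested with edgeR 4.0.16 (filterByExpr, TMM, quasi-likelihood) in R 4.3.3, with Benjamini-Hochberg adjustment over all genes tested. With ZT pooled and for differences in rhythm 36 libraries were fitted, at each ZT 12, for a rhythm 18 and for the interaction 72. CPM are TMM-scaled, and log2 CPM for likeness had a prior count of 2 and a minimum mean of 1. Fits were checked on simulated data. DESeq2 1.42.0, other scalings and filters, ZT as a factor, a JTK-type rank test, a replicate block and left-out libraries were alternatives. Ratios were tested in Python 3.11.15 with scipy 1.17.1 and numpy 2.4.6. Gene positions were those of GENCODE on GRCm38.

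The members and lists were chosen with earlier results of these data known. The 4 members were described in full, the other clock genes by counts with values for Rorb, Nr1d1 and Nr1d2, and for likeness the 3 genes highest and 2 lowest in Pearson r. Some items that these rules cover are not reported here. Libraries of one group held no identical columns. The 4 libraries that stood against their labels had been seen earlier and were kept.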

Additional observations from a re-analysis of the deposited data

Results flagged for a closer look

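The difference in 24 h rhythm between LKO and WT mice, tested as an interaction, passed for 3 members in each microbial state. In SPF mice the edgeR adjusted p was 0.00171 for Arntl, 0.00135 for Clock and 0.00364 for Npas2. In GF mice it was 1.44e-05 for Arntl, 0.000538 for Clock and 3.94e-13 for Npas2. Amplitudes in SPF LKO against SPF WT mice were 0.39 and 2.27 for Arntl, 0.06 and 0.73 for Clock and 0.44 and 3.76 for Npas2, and in GF LKO against GF WT mice 0.22 and 2.32, 0.10 and 0.70, and 0.35 and 4.26. In SPF mice the result of Npas2 was lost with ZT as a factor (edgeR adjusted p = 0.189). Without the libraries numbered 1 those of Arntl (edgeR adjusted p = 0.0652), Clock (0.0742) and Npas2 (0.149) in SPF and of Clock (0.0778) in GF mice were lost, and without those numbered 3 that of Arntl and Npas2 in SPF mice. With 3 libraries in each group and ZT, single libraries were not examined for outlying values by a test.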

How the results depend on the processing

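No result past the threshold, in the reported fit or an alternative, changed direction. Of 186 alternative values with ZT pooled 174 kept their side of the threshold, as did all 32 of the interaction, 130 of 148 of the rhythms, 147 of 154 of the rhythm differences, all 24 of the ratio and 1487 of 1536 at single ZT. With library totals only, the median of all genes shifted by 0.10 (SPF LKO minus SPF WT), 0.17 (GF LKO minus GF WT), -0.17 (GF WT minus SPF WT) and -0.11 (GF LKO minus SPF LKO), and the share of calls that were higher went from 50.2% to 80.4%, 50.5% to 87.4%, 44.5% to 7.09% and 49.5% to 17.9%. Clock in SPF mice was then called at 0.39, Rora at 0.28 in GF mice (0.10 relative to the shifted median) and at -0.27 in GF WT against SPF WT mice (-0.08). Clock in SPF mice was also called at 0.36 with ZT as a factor and at 0.36 with the replicate block, which includes ZT as a factor. Clock in GF mice lay from 0.42 to 0.49 over left-out libraries and was not past the threshold without replicate 2 or 3. Arntl in GF LKO against SPF LKO mice was not called without a filter (-0.30) or without 2 SPF LKO libraries (-0.17), and lay from -0.43 to -0.088 over left-out libraries. The other values are adjusted p. With ZT as a factor they were 0.169 for the rhythm of Arntl in SPF LKO, 0.0602 for Rora in SPF LKO, 0.138 for Rora in GF WT and 0.189 for the rhythm difference of Npas2 in SPF mice. By DESeq2 they were 0.0323 for Rora in SPF WT and 0.0357 for Arntl in GF LKO (0.046 with RLE factors), and by the rank test 0.105 for Rora in GF WT and 0.0537 in GF LKO. Over left-out libraries the rhythm p ran from 0.0379 to 0.276 for Rora in SPF WT, 0.0188 to 0.151 for Arntl and 0.00794 to 0.0941 for Rora in SPF LKO, 0.008 to 0.143 for Rora in GF WT, and 0.0217 to 0.0764 for Npas2 and 0.0138 to 0.195 for Rora in GF LKO. For rhythm differences it ran from 0.000605 to 0.0652 for Arntl, 0.00012 to 0.0742 for Clock and 6.76e-05 to 0.149 for Npas2 in SPF mice, and 0.000164 to 0.0778 for Clock in GF mice, each highest without replicate 1. Member calls over 6 ZT between GF WT and SPF WT mice numbered 1, but 5 without a filter and 0 to 2 over left-out libraries, and between GF LKO and SPF LKO mice 0, but 1 without a filter. Npas2 did not pass the filter in GF WT against SPF WT mice without replicate 1 or 2. These causes were not tested, beyond the fewer libraries of a left-out fit.

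Counts over all genes moved by more than 1.5 times as follows. With ZT pooled, SPF LKO against WT had 3043 calls, and 1711 and 1586 without replicate 1 and 3. GF LKO against WT had 3899, and 6920.0 with library totals. GF WT against SPF WT had 4069, with 6336 by library totals and 1674 and 2608 without replicate 2 and 3, and GF LKO against SPF LKO had 4741, with 2431 and 3088. The interaction had 59, with 13, 15 and 25 without replicate 1, 2 and 3. Rhythms in SPF WT numbered 2077, with 982 by ZT as a factor, 1369 by the rank test and 759, 521 and 1162 without each replicate number. In SPF LKO they numbered 3004, with 744, 1995 and 889, 707 and 532 in the same order. In GF WT they numbered 3529, with 1795 by ZT as a factor and 1393 and 1546 without replicate 1 and 2, and in GF LKO 4682, with 2931, 2517 and 2053 without each replicate number. Rhythm differences in SPF mice numbered 148, with 44 by ZT as a factor, 1, 57 and 62 without each replicate number, 230.0 without SPF LKO ZT14 replicate 2, 364 without 3 SPF libraries and 285 by DESeq2. In GF mice they numbered 808, with 495 by ZT as a factor and 253 and 231 without replicate 1 and 2. Between GF WT and SPF WT mice they numbered 6, with 1 by ZT as a factor, 0 without any replicate number, 10 without 2 libraries and 42 by DESeq2. Between GF LKO and SPF LKO mice they numbered 695, with 7 by ZT as a factor, 0, 12 and 0 without each replicate number, 385 without SPF LKO ZT14 replicate 2, 399 without 2 libraries and 1112 by DESeq2. At single ZT all counts are given, in order of ZT. SPF LKO against WT had 1256, 1324, 1798, 136, 107 and 678 calls by DESeq2 and 1599, 1830.0, 2057, 532, 623 and 1016 without a filter. GF LKO against WT had 777, 1900.0, 1903, 1296, 1497 and 783 and 1104, 2140.0, 2156, 1601, 1870.0 and 1024 likewise. GF WT against SPF WT had 1816, 1244, 722, 278, 508 and 481 and 2088, 1730.0, 1136, 475, 652 and 756 likewise. GF LKO against SPF LKO had 1761, 548, 398, 335, 986 and 1017 and 1895, 874, 851, 719, 1373 and 1287 likewise.

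The replicate numbers were shared across groups, but same-numbered libraries had a median correlation of deviations of -0.0107 (108 pairs, 21 over 0.1) and others of 0.00117 (216 pairs, 34 over 0.1). Same-numbered libraries were therefore not treated as pairs. These medians cannot tell whether some of the libraries shared a batch. The replicate block took the pooled calls over all genes in SPF mice from 3043 to 3706 (3698 with ZT as a factor alone) and changed no other call of a member. Depth limits Npas2 in WT mice from ZT6 to ZT14, where libraries held 0 to 6 counts.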
